A study of Homo sapiens with 105 samples.

Results

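Membrane vesicles (MVs) of Lacticaseibacillus casei were compared with transfected controls in Caco-2 cells at 48 h. Caco-2 is an epithelial line from a human colon adenocarcinoma. The libraries labelled as L. casei MVs at 48 h (LcMV) were set against the pool of 2 transfected groups at 48 h, and then against each of them alone. There were 12 such libraries by their labels, 4 per group. The 6 of them that were sequenced in lanes 2 to 4 of flow cell 1 were left aside, which kept 2 libraries per group (replicates 2 and 3) of the 66 libraries of the series outside these lanes (39 lay within them).

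LcMV cells had received 1.5e11 vesicle particles with fresh medium. ANC100 cells had been transfected with 100 ng of AllStars Negative Control siRNA (ANC), a non-targeting duplex, and LcRNA cells with 100 ng of RNA taken from L. casei MVs. Both transfections used a lipofection reagent (Lipofectamine), which LcMV cells did not get. The presence of vesicles and the absence of lipofection therefore cannot be told apart in the pooled comparison. PBS cells at 48 h, the incubation control without vesicle or lipid, are given beside the results. Only replicates 2 and 5 of PBS were outside the lanes, and no other group had a replicate 5 among the libraries used at 48 h, so every test against PBS rests on PBS replicate 2, which was sequenced in lane 1 of flow cell 1. Treatment and flow cell cannot be told apart in it. All of these cells were the same line, and no source used here says whether replicates came from separate cultures. The p-values then measure a spread between libraries. This spread was estimated over all libraries of the series outside the lanes, with other times and treatments included, and not from the compared libraries alone.

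Gram-positive bacteria release MVs that carry membrane lipids, proteins, cell wall fragments and nucleic acids. Gut epithelial cells can sense such cargo by surface and endosomal receptors that lead to NF-kappaB and interferon responses. Bacteria of the lactobacillus group also form tryptophan metabolites that are known ligands of the aryl hydrocarbon receptor (AhR). AhR is a transcription factor of the cytosol which, once it has bound a ligand, pairs with ARNT in the nucleus and binds DNA at the xenobiotic response element. Its best known target is CYP1A1, an enzyme that oxidises aromatic compounds and many AhR ligands. Transfected double-stranded or triphosphate RNA can be sensed in the cytosol by RIGI and IFIH1, which lead to interferon.

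The 6 libraries held 6253184 and 5667507 counts in LcMV, 8008666 and 5495072 in ANC100 and 4185225 and 6528223 in LcRNA. In all groups replicate 2 was sequenced in lane 2 and replicate 3 in lane 4 of flow cell 2, so lane and replicate number cannot be told apart, but both were balanced over the groups. By their overall profile all 6 lay nearest to other libraries of 48 h. Of the 6 labelled libraries that were left aside (2527528 to 4440418 counts), 0 lay nearest to 48 h. The used libraries were set beside other 48 h libraries of their own replicate number. Those left aside were replicates 4 and 5, and of these numbers only PBS replicate 5 was among the 48 h libraries used. The 2 outcomes are therefore not on equal terms and do not show that a label is wrong. Defining markers of epithelial cells were over 1 CPM in 7 of 7 cases, where CPM are counts per 1000000 after scaling by TMM. Markers of leukocytes summed to 12.5 to 151 CPM in LcMV and 11.95 to 152 CPM in the controls with PTPRC at 0, and those of endothelial cells to 9.64 to 9.76 CPM in LcMV and 7.36 to 12.2 CPM in the controls with KDR at 0. Over 1 CPM on average were 3 of 5 leukocyte and 2 of 4 endothelial markers, in LcMV and in the controls alike. Of the fibroblast markers 3 of 5 were over 1 CPM in LcMV and 4 of 5 in the controls. Fibroblast markers summed to 81.5 to 94.1 CPM in LcMV and 69.4 to 98.01 CPM in the controls. These sums overlapped between the groups, and their part in the results was not tested.

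CYP1A1 and the complement gene C3 were higher with MVs, and both were also higher with MVs at 10 and 24 h in other libraries. The growth regulator MYC and the early response genes IER2 and ETV5 rose as well, mainly in replicate 2. The lowered genes included secreted plasma proteins (FGG, RBP4, APOH), the adhesion-type protein HEPACAM2 and the FGF coreceptor KLB. In numbers, 65 of 19233 genes passed the test (27 higher, 38 lower, adjusted p under 0.05 by the edgeR quasi-likelihood test with Benjamini-Hochberg adjustment), which is 0.338% of all genes tested (0.14% higher, 0.198% lower). Most changes were small. The median size of the log2 fold change was 0.38, the smallest was 0.21, and 8 of the 65 reached a 2-fold difference. An unadjusted p under 0.05 was found for 1683 genes (8.75%).

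This count depended on replicate 2 and on the block, that is, on comparing libraries of the same replicate number. Without LcMV replicate 2 it was 0, without ANC100 replicate 2 it was 5 and without LcRNA replicate 2 it was 19. Leaving out the replicate 3 libraries gave more, with 409 genes without that of LcMV, 193 without that of ANC100 and 98 without that of LcRNA. One block shared by all times gave 6 genes, all of them among the 65, and the 6 libraries on their own gave 1 gene, CYP1A1. No gene passed without the block (377 at an unadjusted p under 0.05), nor with all labelled libraries without the block (480) or with it (950). DESeq2 and limma voom called 65 and 86 genes in the same design, and 40 of the 65 passed with all 3 tools.

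The 4 libraries of the pooled controls were more alike. LcRNA against ANC100 gave 0 genes past the test with edgeR (926 at an unadjusted p under 0.05, 4.81%), 0 with DESeq2 and 0 with voom. LcMV differed from ANC100 alone in 67 genes (29 higher, 38 lower, 0.348%, with 0.151% higher, and 9.24% at an unadjusted p under 0.05) and from LcRNA alone in 17 (6 higher, 11 lower, 0.0884%, with 0.0312% higher and 0.0572% lower, and 6.42% at an unadjusted p under 0.05). Of the 65 genes, 44 also passed against ANC100 alone, 15 against LcRNA alone and 12 against both. The 12 included CYP1A1, C3, ETNK1, HEPACAM2, KLB, GSTA2, RBP4, GLUD1, CRYBG1 and DEPTOR-AS1. The counts against a single group fell to 0 for both without LcMV replicate 2, and they were 382 against ANC100 and 292 against LcRNA without LcMV replicate 3. Without replicate 2 of the control itself, both counts were 0, and without ANC100 replicate 3 the count against ANC100 was 132.

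CYP1A1, on chromosome 15 (GRCh38, 74719542 to 74725536, minus strand), had the largest fold of the genes with more than 10 CPM. It was at 42.6 and 40.4 CPM in LcMV, against 10.4 and 14.6 CPM in ANC100 and 9.57 and 11.0 CPM in LcRNA. PBS was at 8.65 and 8.65 CPM. Both LcMV libraries thus lay above all 6 other libraries, and the 4 transfected ones lay close to PBS. The log2 fold change was 1.88 ± 0.29 (SE, adjusted p = 0.000701) against the pool, 1.76 against ANC100 and 2.00 against LcRNA, and the fold of 2.21 against PBS passed too (adjusted p = 0.0281). With the LcMV library of replicate 3 alone the fold was 1.67 (unadjusted p = 0.000299, adjusted p = 0.479), and without ANC100 replicate 2 it was 1.74 (adjusted p = 0.0502).

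The CYP1A1 promoter is shown here because CYP1A1 carries the largest well-measured change and AhR binds a short DNA motif. Capitals mark the core of the xenobiotic response element, GCGTG, or CACGC where it lies on the other strand. The first sequence is the RefSeq promoter (GRCh38.p14, chr15:74725479-74725778, minus strand), from 250 bases before to 50 bases after the start. The second is the stretch of 300 bases with the most cores among the 1500 bases before the gene (hg38, chr15:74726499-74726798, minus strand), which lies 1262 to 963 bases before the annotated start.
CYP1A1 promoter: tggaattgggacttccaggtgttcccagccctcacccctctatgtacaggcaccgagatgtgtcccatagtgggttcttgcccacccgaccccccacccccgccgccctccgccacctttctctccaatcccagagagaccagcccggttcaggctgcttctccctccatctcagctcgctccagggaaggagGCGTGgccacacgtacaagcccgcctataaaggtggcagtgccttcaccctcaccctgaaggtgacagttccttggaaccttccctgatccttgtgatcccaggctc
CYP1A1 upstream stretch: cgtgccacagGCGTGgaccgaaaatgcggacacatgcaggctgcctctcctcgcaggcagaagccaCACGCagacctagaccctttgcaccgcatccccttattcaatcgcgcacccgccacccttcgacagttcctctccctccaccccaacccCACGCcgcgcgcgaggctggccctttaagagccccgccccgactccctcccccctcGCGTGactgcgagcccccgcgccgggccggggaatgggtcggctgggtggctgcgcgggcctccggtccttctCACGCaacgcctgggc
The promoter window holds 1 core, beginning 57 bases before the start, and 36.5% of 35116 RefSeq promoters of this length hold at least 1. The upstream stretch holds 5 cores of the 10 in the 1500 bases. Among 20033 protein-coding genes searched in the same way, 1.46% had a stretch with as many, and the median was 1. These matches are letters in the genome and not measured binding.

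Other genes linked to AhR did not pass. Of the 10 tested members of the AhR list, 1 rose (CYP1A1) and 0 fell, beside 0.14% and 0.198% of all genes. The list's median log2 fold change was 0.10 against 0.002 over all genes. ABCG2, an efflux pump, had 29.9 and 21.9 CPM in LcMV, 18.4 and 19.3 CPM in ANC100 and 17.7 and 20.4 CPM in LcRNA (0.44, adjusted p = 0.0912). TIPARP, a feedback inhibitor of AhR, had 34.2 and 32.9 CPM in LcMV, 33.4 and 37.6 CPM in ANC100 and 24.2 and 32.0 CPM in LcRNA (0.08, adjusted p = 0.889). CYP1B1 was near the limit of detection at 48 h, with 0.976 and 0.860 CPM in LcMV, 0.525 and 1.28 CPM in ANC100 and 1.20 and 1.21 CPM in LcRNA (-0.12). Only CYP1A1 among these had LcMV libraries far outside the controls.

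C3, the central component of complement, was at 189 and 167 CPM in LcMV, against 69.7 and 100.9 CPM in ANC100 and 67.2 and 106 CPM in LcRNA. PBS was at 78.7 and 53.2 CPM. The groups did not overlap, and C3 was higher with MVs in both replicates, more so in replicate 2 (log2 ratio 1.46) than in replicate 3 (0.69). Its log2 fold change was 1.06 ± 0.13 (adjusted p = 2.61e-05) against the pool, and it was 1.05 against PBS (adjusted p = 0.00548). C3 kept its call without either replicate 2 control, and with MV replicate 3 alone it had an adjusted p of 0.323. C1R, the protease that starts the classical complement pathway, went the other way, with 6.83 and 6.71 CPM in LcMV against 14.2 and 11.0 CPM in ANC100 and 10.5 and 10.6 CPM in LcRNA (-0.78 ± 0.20, adjusted p = 0.0381). These were 42 and 39 counts in LcMV. The other complement genes and regulators did not pass, so that 1 of 13 tested members rose and 1 fell, with a median of -0.14. Of all genes tested 0.14% rose and 0.198% fell.

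**Figure D1:**
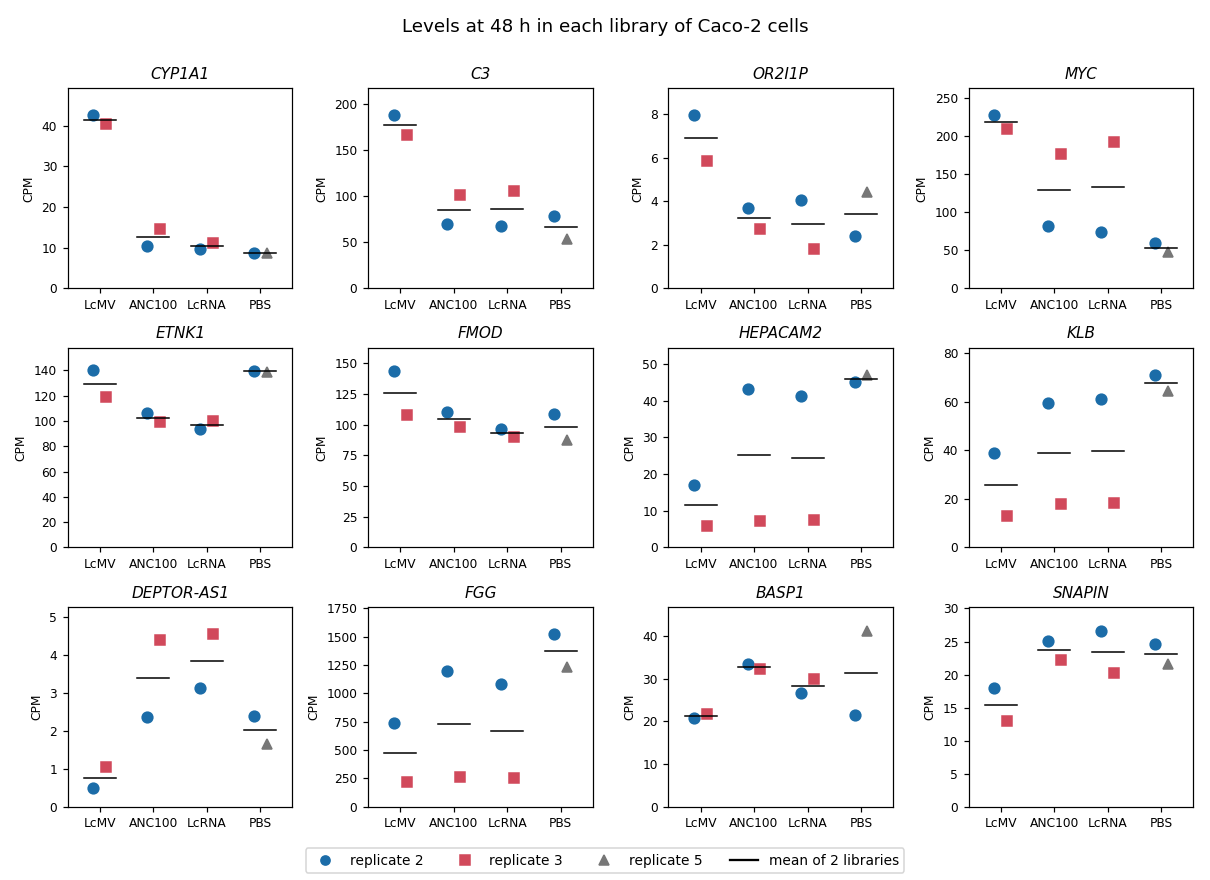
Levels in CPM (vertical axis from 0) of 12 genes past the test in each library at 48 h, with a circle for replicate 2, a square for replicate 3, a triangle for PBS replicate 5 and a line at the mean of 2 libraries. CYP1A1 and C3 are higher in both LcMV libraries than in all others, whereas for HEPACAM2, KLB and FGG the replicate 3 libraries are low in LcMV, ANC100 and LcRNA alike.

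Replicates 2 and 3 showed the MV difference to unequal extents. The 65 genes differed in the called direction in 65 of 65 cases in replicate 2 and in 63 of 65 in replicate 3, but the ratio was smaller in replicate 3 for 61 of them. The median log2 ratio in the called direction was 0.53 in replicate 2 and 0.20 in replicate 3. A ratio in replicate 3 of at least 50% of that in replicate 2 was found for 23 genes. With LcMV replicate 2 alone 57 of the 65 passed, and with LcMV replicate 3 alone 0 did, although 33 of them had an unadjusted p under 0.05 in the same direction. Both LcMV libraries lay outside the range of the 4 controls for 23 of the 65 genes, against 8.32% of all genes tested, and 58 of 65 had the same direction in all 4 ratios within a replicate, against 11.6% (higher) and 12.6% (lower) of all genes. The 65 genes were chosen by the test in these same libraries, which raises both shares, so they are no independent check.

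The replicates themselves differed far more than the treatments. Between replicates 3 and 2 at 48 h, 6886 of the 19233 genes tested differed by the same test, and 50 of the 65 were among them. The share was thus higher among the 65 than among all genes. For 45 of the 50, LcMV differed from the controls in the direction in which replicate 3 differed from replicate 2, and for 5 in the opposite one. Over all 6886 genes the directions were the same for 61.3%. Sucrase-isomaltase (SI), a brush border disaccharidase, shows this. It was at 315 and 62.3 CPM in LcMV, 546 and 67.2 CPM in ANC100 and 485 and 63.0 CPM in LcRNA (-0.51 ± 0.11, adjusted p = 0.0211). The difference stood in replicate 2, and replicate 3 was low in all groups. What sets the replicates apart was not tested.

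**Figure D2:**
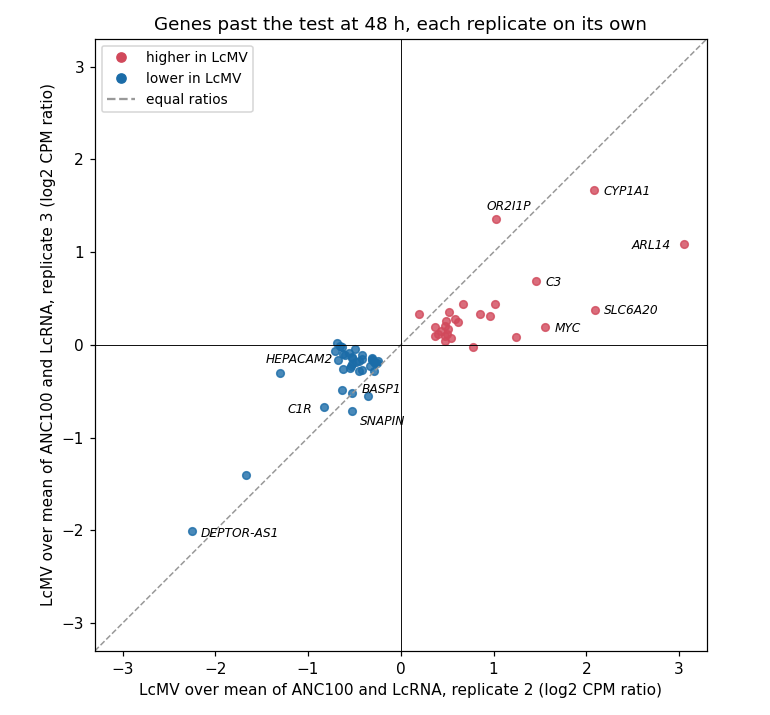
Log2 ratio of CPM between LcMV and the mean of ANC100 and LcRNA within replicate 2 (horizontal axis) and within replicate 3 (vertical axis) for the 65 genes past the test, red for higher and blue for lower in LcMV, with a dashed line where both ratios are equal. Most points lie nearer to the horizontal axis than the line, with 61 of 65 ratios smaller in replicate 3. CYP1A1, OR2I1P, SNAPIN, BASP1 and DEPTOR-AS1 lie near the line.

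Genes whose difference was of like size in both replicates were few. OR2I1P, an olfactory receptor gene on chromosome 6 (29550407 to 29557773, plus strand), was at 7.97 and 5.85 CPM in LcMV, against 3.68 and 2.74 CPM in ANC100 and 4.07 and 1.81 CPM in LcRNA (1.20 ± 0.25, adjusted p = 0.00342). It shares 836 exon bases with UBD on the other strand, a ubiquitin-like modifier induced by inflammatory cytokines, and with no strand setting given for the counts the reads of both genes cannot be told apart. UBD itself was not among the genes tested. SNAPIN, which binds SNARE proteins and is part of the lysosome-positioning complex BORC, was at 17.9 and 12.9 CPM in LcMV, against 25.1 and 22.3 CPM in ANC100 and 26.5 and 20.2 CPM in LcRNA (-0.60 ± 0.12, adjusted p = 0.00321). BASP1, a lipid-anchored protein of the membrane cytoskeleton, was at 20.8 and 21.7 CPM in LcMV, against 33.5 and 32.3 CPM in ANC100 and 26.8 and 29.9 CPM in LcRNA (-0.53 ± 0.11, adjusted p = 0.00342). For these 3 genes all LcMV libraries lay outside the range of the controls. BASP1 was at 21.6 and 41.2 CPM in PBS, so its level with MVs was close to that of PBS replicate 2 (-0.05, adjusted p = 0.958).

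DEPTOR-AS1 and ARL14 had large folds at low counts. DEPTOR-AS1, a long non-coding RNA from the strand opposite to the mTOR inhibitor DEPTOR, had 3 and 6 counts in LcMV, against 18 and 24 in ANC100 and 13 and 30 in LcRNA. As CPM these were 0.488 and 1.03, against 2.36 and 4.38 and against 3.11 and 4.53 (-2.20 ± 0.41, adjusted p = 0.000701). It shares 252 exon bases with DEPTOR, so reads of both genes cannot be told apart there without the strand setting. DEPTOR itself was at 9.76 and 20.6 CPM in LcMV, 13.7 and 22.8 CPM in ANC100 and 8.85 and 25.4 CPM in LcRNA and did not pass (-0.24, adjusted p = 0.689). Each LcMV library had a lower CPM of DEPTOR-AS1 than the controls of its replicate. At the other end ARL14, a small GTPase of vesicle transport, had 18 and 6 counts in LcMV, against 1 and 1 in ANC100 and 2 and 6 in LcRNA (2.43 ± 0.58, adjusted p = 0.0211). ARL14 did not pass against LcRNA alone (adjusted p = 0.716).

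The immediate early and growth factor feedback genes lay above the controls mainly in replicate 2. MYC was at 227 and 209 CPM in LcMV, against 81.0 and 176 CPM in ANC100 and 73.4 and 192 CPM in LcRNA, with PBS at 59.1 and 47.7 CPM. In replicate 2 MYC was thus far above the controls, and in replicate 3 slightly above controls that were high themselves (0.83 ± 0.17, adjusted p = 0.0127). ETV5, an ETS factor downstream of ERK, was at 19.0 and 21.2 CPM in LcMV, against 9.85 and 17.3 CPM in ANC100 and 11.2 and 16.3 CPM in LcRNA (0.57 ± 0.14, adjusted p = 0.0219). IER2, an immediate early nuclear protein, was at 58.7 and 50.1 CPM in LcMV, against 33.8 and 54.4 CPM in ANC100 and 34.4 and 47.3 CPM in LcRNA (0.38 ± 0.09, adjusted p = 0.0231). In replicate 3 IER2 lay between the 2 controls, and without LcMV replicate 2 its log2 fold change was -0.02. DESeq2 and voom did not call IER2 (adjusted p = 0.0731 and 0.0897). By the edgeR test IER2 passed neither against ANC100 alone (adjusted p = 0.137) nor against LcRNA alone (0.118). The same held for ETV5 (0.0573 and 0.284), while MYC passed against ANC100 alone (0.0351) and not against LcRNA alone (0.154). EGR1, a zinc finger factor induced by serum, was at 258 and 48.5 CPM in LcMV, against 44.7 and 74.5 CPM in ANC100 and 59.1 and 77.0 CPM in LcRNA, and did not pass (1.15, adjusted p = 0.109). It was high in the LcMV library of replicate 2 and below the controls in that of replicate 3.

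Over the list of 23 such genes, 3 rose (MYC, IER2, ETV5) and 0 fell, 16 had an unadjusted p under 0.05, 18 had a log2 fold change above 0 and the median was 0.37, beside 0.002 over all genes. The shares over all genes were 0.14% higher, 8.75% at such a p and 9715 of 19233 above 0. DUSP6, IER3, FOSL1 and EGR1, which are ERK targets or feedback regulators, had log2 fold changes of 0.73, 1.19, 0.98 and 1.15 and did not pass (adjusted p = 0.106 to 0.395). All of these lie above the median of the list, whose members ran from -0.53 to 1.19. Relative to PBS replicate 2, 10 of the 23 were higher with MVs, beside 0.894% of all genes. The list of ribosome biogenesis genes and MYC targets had 0 of 18 genes past the test, a median of 0.09 and 17 members above 0. The list of mitosis and DNA replication genes had 0 of 26 and a median of 0.04.

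SLC6A20, a carrier of proline, was at 14.8 and 11.4 CPM in LcMV, against 3.02 and 7.85 CPM in ANC100 and 3.83 and 9.66 CPM in LcRNA (1.13 ± 0.24, adjusted p = 0.0107). SLC7A1, which imports arginine and lysine, was at 187 and 166 CPM in LcMV, against 126 and 158 CPM in ANC100 and 130 and 159 CPM in LcRNA (0.31 ± 0.06, adjusted p = 0.00342). For both carriers all LcMV libraries lay above all controls, and most of the distance was in replicate 2. TNFRSF12A, the receptor of the cytokine TWEAK, had 25.1 and 17.7 CPM in LcMV, against 10.5 and 18.6 CPM in ANC100 and 10.5 and 14.9 CPM in LcRNA (0.67 ± 0.16, adjusted p = 0.0378), and its groups overlapped. ETNK1, an ethanolamine kinase, was at 140 and 119 CPM in LcMV, against 106 and 99.1 CPM in ANC100 and 93.7 and 100 CPM in LcRNA (0.37 ± 0.07, adjusted p = 0.000562). PBS was at 139 and 139 CPM for ETNK1, above the transfected libraries (pooled controls against PBS -0.43, adjusted p = 0.0112). The rest of the named genes that rose were ZBTB16 (0.58), a transcriptional repressor, ADGRF4 (0.57), an adhesion receptor, MAMDC4 (0.44), a glycoprotein of apical endosomes, TRIM2 (0.40), a ubiquitin ligase, and IQANK1 (0.40).

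Transcripts of secreted plasma proteins, which Caco-2 cells make in part as hepatocytes do, lay below the controls. FGG, the gamma chain of fibrinogen, was at 737 and 214 CPM in LcMV, against 1196 and 258 CPM in ANC100 and 1079.5 and 254 CPM in LcRNA (-0.46 ± 0.08, adjusted p = 0.00342). RBP4, the carrier of retinol in blood, was at 153 and 127 CPM in LcMV, against 234 and 142 CPM in ANC100 and 233 and 132 CPM in LcRNA (-0.37 ± 0.07, adjusted p = 0.000562). APOH, a phospholipid-binding plasma protein, was at 60.5 and 37.5 CPM in LcMV, against 88.1 and 38.9 CPM in ANC100 and 81.1 and 46.7 CPM in LcRNA (-0.38 ± 0.09, adjusted p = 0.0135). The LcMV library was the lowest of its replicate for all 3, and the step was larger in replicate 2. Of the 18 tested members of this list 3 fell and 0 rose, 0 had a log2 fold change above 0, 10 had an unadjusted p under 0.05 and the median was -0.26. Among all genes tested, 0.198% fell, 8.75% had such a p and 9715 of 19233 lay above 0. ALB, the main plasma protein, was at 20.2 and 20.8 CPM in LcMV, against 34.0 and 28.7 CPM in ANC100 and 34.2 and 26.3 CPM in LcRNA, and missed the threshold (-0.58, adjusted p = 0.0534). APOA1, the main protein of high density lipoprotein, had -0.09 (adjusted p = 0.875). PBS lay above both kinds of cells for FGG (1521 and 1231 CPM), RBP4 (268 and 272 CPM) and APOH (115 and 126 CPM). Relative to PBS replicate 2, 8 members were lower with MVs and 4 were lower in the pooled controls, beside 0.666% and 0.177% of all genes.

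HEPACAM2, an immunoglobulin-family protein found on some secretory cells of the gut, had the smallest p of the lowered genes. It was at 17.1 and 5.85 CPM in LcMV, against 43.2 and 7.12 CPM in ANC100 and 41.1 and 7.40 CPM in LcRNA, with PBS at 45 and 46.9 CPM (-1.06 ± 0.16, adjusted p = 2.61e-05). KLB, the coreceptor of FGF19 and FGF21, was at 38.7 and 12.9 CPM in LcMV, against 59.4 and 18.1 CPM in ANC100 and 61.2 and 18.3 CPM in LcRNA (-0.60 ± 0.10, adjusted p = 0.000419). GSTA2, a glutathione transferase, was at 76.2 and 25.3 CPM in LcMV, against 107 and 30.3 CPM in ANC100 and 115 and 29.9 CPM in LcRNA (-0.45 ± 0.08, adjusted p = 0.000635). All 3 genes were lowest in LcMV within each replicate and much lower in replicate 3 than in replicate 2 in every group. Without ANC100 replicate 2 none of the 3 passed, and HEPACAM2 then had an adjusted p of 0.14.

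Some enzymes of amino acid metabolism and an amino acid carrier were also among the lowered genes. The amino acid carriers SLC6A20 (1.13) and SLC7A1 (0.31) went the other way, as given above. OAT, ornithine aminotransferase, was at 183 and 179 CPM in LcMV, against 294 and 215 CPM in ANC100 and 289 and 187 CPM in LcRNA (-0.42 ± 0.07, adjusted p = 0.00136). GLUD1, glutamate dehydrogenase of mitochondria, was at 1433 and 944 CPM in LcMV, against 2009 and 1086 CPM in ANC100 and 1916 and 1047 CPM in LcRNA (-0.31 ± 0.06, adjusted p = 0.000635). OAT did not overlap between the groups, and GLUD1 did because replicate 3 was low throughout. SLC38A4, a carrier of neutral amino acids, fell by 0.42 (adjusted p = 0.00188). It was at 108 and 31.3 CPM in LcMV, against 163 and 35.8 CPM in ANC100 and 154 and 30.8 CPM in LcRNA. In replicate 3 it thus lay between the controls, and DESeq2 did not call it (adjusted p = 0.144). The lysosomal ceramidase ASAH1 fell by 0.38, the arrestin-like ARRDC3 by 0.52, CRYBG1 by 0.40, the pioneer factor FOXA1 by 0.23 and the annexin partner S100A10 by 0.21. OAT, GLUD1 and SLC38A4 were picked from the named genes after their values were seen, and no list of this kind was set.

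Several lists that bear on bacterial or RNA sensing had no gene past the test at 48 h. Of 24 tested genes of the interferon response and RNA sensing, 0 passed, the median was -0.06 and 2 had an unadjusted p under 0.05 (8.75% of all genes). ISG15, a ubiquitin-like interferon product, was at 4.39 and 5.85 CPM in LcMV, 2.76 and 5.66 CPM in ANC100 and 5.50 and 4.98 CPM in LcRNA, and IFIT1, which binds foreign RNA, was at 2.12 and 2.06 CPM in LcMV, 3.02 and 1.64 CPM in ANC100 and 3.59 and 0.604 CPM in LcRNA. At such levels only large differences could be seen. Of 19 tested NF-kappaB subunits and targets 0 passed, 6 had an unadjusted p under 0.05, 17 lay above 0 and the median was 0.20. Beside these stand 8.75% of all genes at such a p and 9715 of 19233 above 0. BIRC3, an inhibitor of apoptosis induced by NF-kappaB, had 4.07 and 5.85 CPM in LcMV, 3.02 and 3.29 CPM in ANC100 and 1.91 and 3.47 CPM in LcRNA (0.73, adjusted p = 0.302). Of 13 tested chemokines and cytokines 0 passed. CXCL1, a neutrophil attractant, was at 2.93 and 1.89 CPM in LcMV, 1.44 and 1.10 CPM in ANC100 and 0.239 and 0.906 CPM in LcRNA (1.37, adjusted p = 0.206).

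Further lists with 0 or 1 gene past the test had medians near 0. Sterol and fatty acid synthesis genes had 0 of 24 past the test, 22 above 0 and a median of 0.08. The 15 transcripts of the mitochondrial genome had 0 past the test, 0 above 0 and a median of -0.12. Junction genes (0 of 21, 0.01), ATF4 amino acid stress genes (0 of 20, 0.06), cytosolic heat shock genes (0 of 13, -0.09) and p53 targets and apoptosis genes (0 of 17, 0.09) had none past the test. Of 17 brush border and enterocyte genes SI fell and 7 had an unadjusted p under 0.05 (8.75% of all genes), with a median of -0.03. Of 18 intestinal transcription factors FOXA1 fell, with a median of 0.04. Among all genes tested 0.198% fell.

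**Figure D3:**
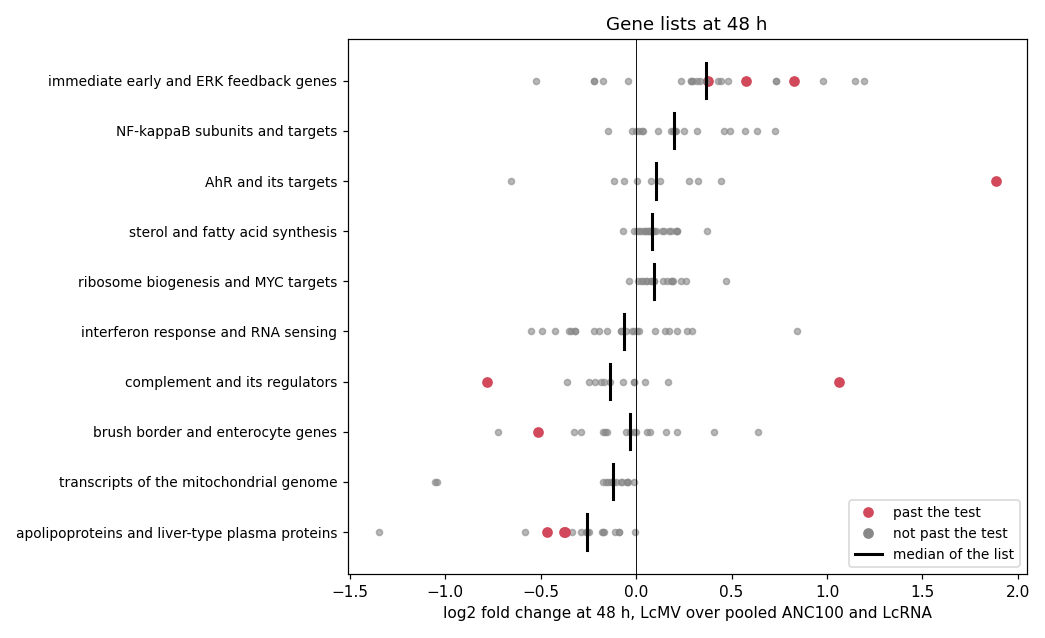
Log2 fold change at 48 h between LcMV and the pooled controls (horizontal axis) for each tested member of 10 gene lists, red if past the test and grey if not, with a bar at the median of the list. The immediate early list has a median of 0.37 and the plasma protein list one of -0.26, and CYP1A1 stands alone among AhR genes at 1.88.

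The same comparison in separate libraries of 10 and 24 h shows which differences recurred. At these times, unlike 48 h, flow cell was not balanced over the groups within a replicate number, and its part was not tested. At 24 h LcMV differed from the pooled controls in 16 genes (13 higher, 3 lower, 0.0832%, with 0.0676% higher and 0.0156% lower, and 7.24% at an unadjusted p under 0.05) and at 10 h in 194 (110 higher, 84 lower, 1.01%). The counts were 1, 5, 7, 8 and 10 at 24 h without LcMV replicate 2, LcMV replicate 3, ANC100 replicate 3, LcRNA replicate 3 and LcRNA replicate 2, and at 10 h they were 25, 54 and 108 without LcMV replicates 2, 3 and 4, 107 without ANC100 replicate 2 and fewer by 89 without ANC100 replicate 3. Of the 65 genes of 48 h, 60 had the same sign at 24 h and 58 at 10 h, 53 at both, beside 57% and 56.2% of all genes. Past the test with the same sign were 6 at 24 h and 14 at 10 h, and 0 passed with the opposite sign. The difference of the effects was tested as well, and 0 genes passed for 48 h against 24 h (867 at an unadjusted p under 0.05, 4.51%, 0 with DESeq2, 0 with voom) or against 10 h (1017 at an unadjusted p under 0.05, 5.29%, 0 with DESeq2, 1 with voom). Without LcMV replicate 3 of 48 h these 2 counts were 68 and 82.

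CYP1A1, C3, LINC00511 and FMOD passed at all 3 times, each of them higher. At 10 h CYP1A1 was at 121 to 278 CPM in 3 LcMV libraries, against 68.8 to 140 CPM in 4 ANC100 and 74.5 to 148 CPM in 4 LcRNA libraries (1.13 ± 0.13, adjusted p = 5.69e-06). At 24 h it was at 41.3 and 68.3 CPM in LcMV, against 4.95 and 10.4 CPM in ANC100 and 7.20 to 16.1 CPM in 3 LcRNA libraries (2.75 ± 0.32, adjusted p = 2.06e-05). The LcMV ranges lay above those of the controls at 24 and 48 h and met them at 10 h, when all groups were high. PBS was at 68.3 and 81.6 CPM at 10 h and 11.9 and 12.9 CPM at 24 h, and LcMV was higher than PBS at both times (1.50 and 2.15, adjusted p = 7.97e-05 and 0.0056). CYP1B1, another AhR target, passed at 10 h (1.72, adjusted p = 0.000465) but not at 24 h (2.06, adjusted p = 0.341) or 48 h.

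C3 was at 98.1 to 128 CPM in LcMV at 10 h, against 59.9 to 84.6 CPM in ANC100 and 59.0 to 101.4 CPM in LcRNA (0.57 ± 0.12, adjusted p = 0.0085). At 24 h it was at 79.5 and 117 CPM in LcMV, against 41.4 and 74.9 CPM in ANC100 and 42.5 to 78.1 CPM in LcRNA (0.78 ± 0.16, adjusted p = 0.0436). The log2 fold changes of C3 thus stood in the order 0.57, 0.78 and 1.06 over 10, 24 and 48 h, with no difference between the times past the test. LINC00511, a long non-coding RNA on chromosome 17, had 14.5 and 52.8 CPM in LcMV at 48 h, against 6.44 and 36.0 CPM in ANC100 and 7.89 and 42.1 CPM in LcRNA (0.57 ± 0.12, adjusted p = 0.00207), 0.62 at 24 h and 0.38 at 10 h. FMOD, fibromodulin, a proteoglycan that binds collagen, had 144 and 108 CPM in LcMV at 48 h, against 110 and 98.2 CPM in ANC100 and 96.1 and 90.0 CPM in LcRNA (0.34 ± 0.06, adjusted p = 0.000701), 0.32 at 24 h and 0.27 at 10 h. Both genes overlapped between the groups at 48 h but were highest in LcMV within each replicate. Voom did not call LINC00511 at 48 h (adjusted p = 0.125).

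Some of the lowered genes also passed at an earlier time. FGG (-0.47), OAT (-0.44), SLC38A4 (-0.53), KLB (-0.59), HEPACAM2 (-0.98) and GLUD1 (-0.26) passed at 10 h with the sign they had at 48 h, and none of them passed at 24 h, where they had -0.30, -0.13, -0.23, -0.05, -0.40 and -0.21. The difference between 10 and 24 h was not tested. PEG10, an imprinted gene that comes from a retrotransposon, passed at 24 h (-0.33) and 48 h (-0.26) and not at 10 h (-0.16). MYC had 0.08 at 10 h and 0.32 at 24 h and passed at neither, and DEPTOR-AS1 had 0.20 and -0.32. OR2I1P passed at 10 h (0.52) and not at 24 h (0.66, adjusted p = 0.232).

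**Figure D4:**
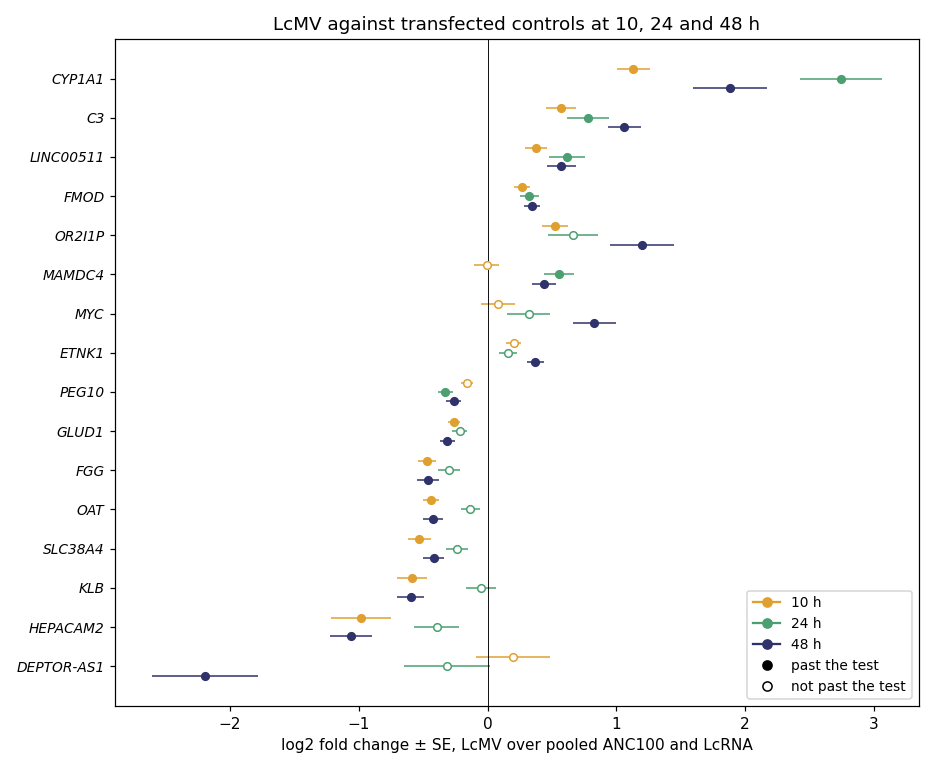
Log2 fold change with its standard error between LcMV and the pooled controls (horizontal axis) at 10, 24 and 48 h for 16 genes past the test at 48 h, with filled points where the test was passed at that time. CYP1A1, C3, LINC00511 and FMOD are filled at all 3 times, and DEPTOR-AS1 departs from 0 at 48 h.

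PBS gives a further set of values, with the limit that flow cell and treatment cannot be told apart. LcMV differed from PBS in 300 genes at 48 h (172 higher, 128 lower, 1.56%, with 0.894% higher and 0.666% lower) and the pooled controls differed from PBS in 97 (63 higher, 34 lower, 0.504%, with 0.328% higher and 0.177% lower, and 10.2% at an unadjusted p under 0.05). Both comparisons share the PBS libraries, and that of LcMV uses the LcMV libraries by which the 65 genes were chosen, so it is no independent check of them. The pooled controls differed from PBS in 7 of the 65, among them SLC7A1, APOH, GSTA2, FGG and ETNK1. The count against PBS was 13 without LcMV replicate 2 and 575 without LcMV replicate 3, and that of the pooled controls against PBS was 62 without LcRNA replicate 2 and 159 without ANC100 replicate 2. Without PBS replicate 2 neither comparison could be made.

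In the labelled libraries that were left aside, CYP1A1 was at 11.3 and 8.98 CPM in LcMV, 23.9 and 5.78 CPM in ANC100 and 20.3 and 10.6 CPM in LcRNA, and C3 was at 57.2 and 71.0 CPM in LcMV, 52.9 and 81.3 CPM in ANC100 and 43.4 and 77.8 CPM in LcRNA. The groups overlapped for both. ADGRF4, 1 of the 39 named genes, was at 19.9 and 17.5 CPM in LcMV, above ANC100 (11.4 and 14.0 CPM) and LcRNA (16.7 and 15.4 CPM). How many of the 39 would do so by chance was not tested. In the libraries used its groups overlapped (18.7 and 28.7 CPM in LcMV, 11.7 and 26.3 CPM in LcRNA). It did not pass the edgeR test against LcRNA alone (adjusted p = 0.74). With all labelled libraries and no block, 8 of the 65 genes had an unadjusted p under 0.05 with the same sign, and CYP1A1 was at 1.01 and C3 at 0.68 (adjusted p = 1 for both). Which label these libraries should carry was not tested.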

How the data were processed

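RNA of Caco-2 cells was depleted of rRNA and sequenced in pairs on a DNBSEQ-G400. According to the submitters' processing notes and the methods of the study, STAR was the authors' aligner, GRCh38 their genome and featureCounts their gene counter, with duplicates handled by sambamba and a minimum mapping quality. The counts deposited by the authors were raw and are used as deposited. The strand setting of the counting is not given in the sources used here.

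All 66 libraries not sequenced in lanes 2 to 4 of flow cell 1 entered 1 fit, which let all groups share 1 estimate of the spread, by the quasi-likelihood test of edgeR 4.0.16 (R 4.3.3, trended dispersion, robust) with TMM scaling, the filterByExpr filter (19233 of 44757 genes with a count) and the replicate number as a block within each time. The block on the replicate number was set by the rule of this comparison. Same-numbered libraries deviated together (correlation 0.75 to 0.83 at 48 h), over the 1500 genes that varied most among these same libraries. Genes chosen in this way favour such a correlation, so it does not justify the block. That numbers mark a shared culture is not stated in the labels. P-values were adjusted by Benjamini-Hochberg over all genes, with a threshold of 0.05. CPM are counts per 1000000 with TMM scaling, and the SE is the size of the log2 fold change divided by the square root of F. The pooled control is the mean of the ANC100 and LcRNA coefficients.

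Genes with a symbol and at least 1 CPM were named if they passed the test and were among the 15 highest or lowest by fold, the 8 smallest p in each direction, the members of a gene list, or the 5 smallest p against a single control, and some of them are not reported here. The members and lists were chosen with earlier results of these data known. DESeq2 1.42.0, limma 3.58.1 voom, other filters and scalings, other blocks, all labelled libraries and the omission of single libraries were tried. Coordinates are from the GRCh38 annotation and the promoter from RefSeq.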

Additional observations from a re-analysis of the deposited data

How the results depend on the processing

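Over the settings tried, direction was stable for the 39 genes that the naming rule picked, and the call was not. All settings reuse libraries by which these genes were picked. That favours a kept direction, so it is no independent check. IER2 alone turned round, at -0.017 without LcMV replicate 2, and its values with 1 library left out ran from there to 0.80. RLE size factors kept the call of 39 of 39 of these genes, DESeq2 and voom that of 31 each, a block shared by all times that of 6, and no block or all labelled libraries that of 0. The counts given for each setting follow as genes past the test. Against the pooled controls at 48 h, with 65 as the reported count, no filter gave 106, the 6 libraries alone 1, the shared replicate block 6, no replicate block 0 and all labelled libraries 0 without or with the block. Against ANC100 alone (67) these were about 1.0e2 (rounded to 2 digits), 1, 3, 0, 0 and 0. Against LcRNA alone (17) they were 42, 1, 3, 0, 0 and 0, and voom gave 32. LcMV against PBS (300) gave 519 with the shared block, 54 without a block, and 0 or 1 with all libraries without or with the block. The pooled controls against PBS (97) gave 157 without a filter, 22 without a block and 0 with all libraries either way. At 24 h (16) the shared block gave 1, no block 1 and all libraries 0 either way, and at 10 h (194) they gave 9, 0 and 0. The difference between 48 and 10 h (0) gave 2 without a filter, 1 with voom, 1 with RLE size factors and 5 without the robust option. The cause was not tested.

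Leaving out 1 library at a time gave 0 to 409 genes against the pool at 48 h, 0 to 382 against ANC100, 0 to 292 against LcRNA, 0 to 0 between LcRNA and ANC100, 13 to 575 for LcMV against PBS, 62 to 159 for the pooled controls against PBS, 1 to 16 at 24 h, 25 to 193 at 10 h, 0 to 68 for 48 against 24 h and 0 to 82 for 48 against 10 h. Leaving out PBS replicate 2 gave no value against PBS, since PBS replicate 5 shares its number with no other library used at 48 h. With 1 LcMV library left, it was assumed to vary like the other groups. Genes of a few counts, such as ARL14 and DEPTOR-AS1, are limited by depth.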

Other observations

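BIRC3, the inhibitor of apoptosis induced by NF-kappaB, passed at 24 h (1.32, adjusted p = 0.0162) and at 10 h (0.66, adjusted p = 0.0265) by the edgeR test, and it was at 0.73 at 48 h (adjusted p = 0.302). ABCG2, an efflux pump that AhR ligands can induce, passed at 10 h (0.51, adjusted p = 0.00547) and not at 24 h (0.24, adjusted p = 0.812). Of the 65 genes, 36 share exon bases with another annotated gene, 10 on the same strand and 28 on the opposite one. Reads in such shared bases may have been left uncounted or counted for the other gene, which was not tested.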
